A study of Mus musculus with 2 samples.

Results

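Hepatic stellate cells and fibroblasts were described here from 90 barcodes of mouse liver, out of 5805 kept barcodes in 2 libraries. A barcode stands for 1 droplet and usually for 1 cell or nucleus. The labels do not say whether cells or nuclei were loaded. The members were chosen by their own transcripts: at least 2 unique molecular identifiers (UMIs, counted molecules) summed over Dcn, Reln, Lrat, Hand2os1, Nrxn3, Col3a1, Col1a1, Pdgfrb and Colec11, and none of Ptprc, Ptprb or Stab2, which mark leukocytes and endothelium. They are called gate barcodes below. Both groups were wild-type C57BL/6J mice given an adeno-associated virus (AAV) at 4 weeks of age, then concanavalin A (Con A) at 15 mg/kg into a vein 3 weeks later, with livers collected 6 hours after that. One virus was AAV-shBicd2, which carries a short hairpin against Bicd2, a gene for an adaptor between cargo and the dynein motor. The other was AAV-scramble, which carries a scrambled control. Con A is a plant protein that binds sugars, stimulates T cells and injures the liver through them. No group without Con A and no uninfected group was analysed here. The promoter that drives the hairpin and the number of mice behind each library are not given in the labels. Each group is 1 library, so no difference between them has a replicate check, no test was possible, and every interval given is at 95% and covers counting error only.

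Stellate cells lie between the hepatocytes and the sinusoidal endothelium, store vitamin A as retinyl esters and send hepatocyte growth factor and the Wnt-potentiating R-spondin to their neighbours. On injury they can become contractile, collagen-secreting myofibroblasts, marked by Acta2, Col1a1 and Timp1. They also respond to cytokines and release chemokines that recruit leukocytes. Portal fibroblasts are a separate collagen-producing population around the bile ducts.

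The library labelled shBicd2 had 63 gate barcodes among 3014 kept, and that labelled scramble had 27 among 2791. The share was 2.09% (exact binomial interval 1.61 to 2.67) in the library labelled shBicd2, against 0.967% (0.638 to 1.40) in that labelled scramble, a ratio of 2.16 (1.36 to 3.53). Below, shBicd2 and scramble are the labels of the libraries: outside the gate Bicd2 had 107 UMIs in shBicd2 and 81 UMIs in scramble, so its RNA did not follow the label, in libraries of 5624055 UMIs in shBicd2 and 5086306 UMIs in scramble. Gate barcodes were shallow, with medians of 791 UMIs in shBicd2 and 697 UMIs in scramble, while all other barcodes had medians of 1520 UMIs in shBicd2 and 1522.5 UMIs in scramble. The libraries share 3 barcode strings, and 0 of the gate barcodes are among them.

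Dcn, the small proteoglycan decorin, had the most UMIs of the gate genes, with 97 UMIs in 40 shBicd2 barcodes and 43 UMIs in 22 scramble barcodes. Hand2os1, a long noncoding RNA beside the mesenchymal transcription factor gene Hand2, had 48 shBicd2 UMIs and 22 scramble UMIs. Nrxn3, a neurexin, had 27 shBicd2 UMIs and 11 scramble UMIs, and Reln, the secreted matrix protein reelin, had 25 shBicd2 UMIs and 8 scramble UMIs. Col3a1, a fibrillar collagen chain, had 21 shBicd2 UMIs and 9 scramble UMIs. Pdgfrb, a receptor for platelet-derived growth factor, had 6 shBicd2 UMIs and 7 scramble UMIs. Lrat, the enzyme that esterifies vitamin A, had 3 shBicd2 UMIs in 3 barcodes and 4 scramble UMIs in 1 barcode. Col1a1, the main collagen of scars, had 1 UMI in each gate, and the lectin gene Colec11 had 0 in both.

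At the edge of the rule, 26 shBicd2 members and 9 scramble members had exactly 2 gate UMIs. Just outside it lay 101 shBicd2 barcodes and 39 scramble barcodes with 1 gate UMI and none of the barred genes. A UMI of Ptprc, Ptprb or Stab2 barred a further 2 shBicd2 barcodes and 1 scramble barcode. Members that passed on Reln alone numbered 7 in shBicd2, with a median of 1786 UMIs, and 1 in scramble, with 1679 UMIs. In the 7 shBicd2 barcodes Nfkb1, an NF-kB subunit, stood 4.82-fold (2.94 to 7.48) above all other barcodes, and 21 UMIs of Vcam1, a leukocyte adhesion molecule, lay in 3 of them, both genes being singled out after their values were seen.

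Hand2os1 and Hand2 are read in opposite directions from neighbouring starts, and RNA of both was found in the gate, Hand2 with 10 shBicd2 UMIs and 1 scramble UMI. The RefSeq promoter windows of GRCm38.p6 place the start of Hand2 at position 57320983 of chromosome 8 on the plus strand and that of Hand2os1 at position 57320859 on the minus strand, 124 bases apart. The Hand2 window (chr8:57320733-57321032, plus strand) is printed because the most frequent noncoding gate gene and its protein-coding neighbour meet in it. Capitals mark the 125 bases from one start to the other, both ends included.
Hand2: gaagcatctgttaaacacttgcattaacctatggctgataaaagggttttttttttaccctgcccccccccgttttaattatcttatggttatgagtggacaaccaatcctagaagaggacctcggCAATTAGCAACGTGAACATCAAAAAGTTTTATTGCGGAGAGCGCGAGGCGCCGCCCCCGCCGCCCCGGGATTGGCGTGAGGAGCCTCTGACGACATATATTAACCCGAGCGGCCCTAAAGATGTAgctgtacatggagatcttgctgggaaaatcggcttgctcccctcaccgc
In all other barcodes Hand2os1 had 11 shBicd2 UMIs and 6 scramble UMIs, and Hand2 had 1 UMI in each library. Hand2os1 is a gate gene, so its count outside the gate is held low by the rule that chose the members. That count therefore does not show where Hand2os1 is expressed. Hand2 is not a gate gene.

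The members were not uniform. Levels are given in CPM, the UMIs of a gene divided by all UMIs of its set of barcodes and scaled in the usual way. The sum of 25 genes outside the gate, named below, was 8258 CPM in the shBicd2 gate and 21583 CPM in the scramble gate. In barcodes with no gate UMI that sum was 609 CPM in shBicd2 and 687 CPM in scramble, and just outside the rule it was 1095 CPM in shBicd2 and 4586 CPM in scramble. The 25 genes were chosen for their fold in the gate, so the order of these sums is a description. Of the barcodes just outside, the 46 in shBicd2 whose gate UMI was of Reln had 494 CPM, below the barcodes with no gate UMI, and the 55 with another gate gene had 1692 CPM. Within the gate, the 11 shBicd2 members over 2000 UMIs held 51.2% of all shBicd2 gate UMIs and had 1564 CPM of the 25 genes. Scramble had 1 such member, with 13.6% of its gate UMIs and 2498 CPM.

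Hepatocyte RNA moved with this. A list of 46 hepatocyte genes took 65007 CPM of the shBicd2 gate and 30097 CPM of the scramble gate, against 87202 CPM in the other shBicd2 barcodes and 83232 CPM in the other scramble barcodes. A smaller set of members was therefore used beside the whole gate, with at most 5% hepatocyte list UMIs and at most 2000 UMIs, limits that were chosen after the values were seen. This low-hepatocyte set holds 38 shBicd2 barcodes with 28934 UMIs and 24 scramble barcodes with 17674 UMIs, at medians of 682.5 UMIs in shBicd2 and 678.5 UMIs in scramble. The 25 genes made up 20115 CPM of it in shBicd2 and 27668 CPM in scramble. The hepatocyte list still took 694 shBicd2 UMIs and 181 scramble UMIs there, a fold of 2.34 (1.99 to 2.77) in CPM, and its part in the results was not tested.

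**Figure D1:**
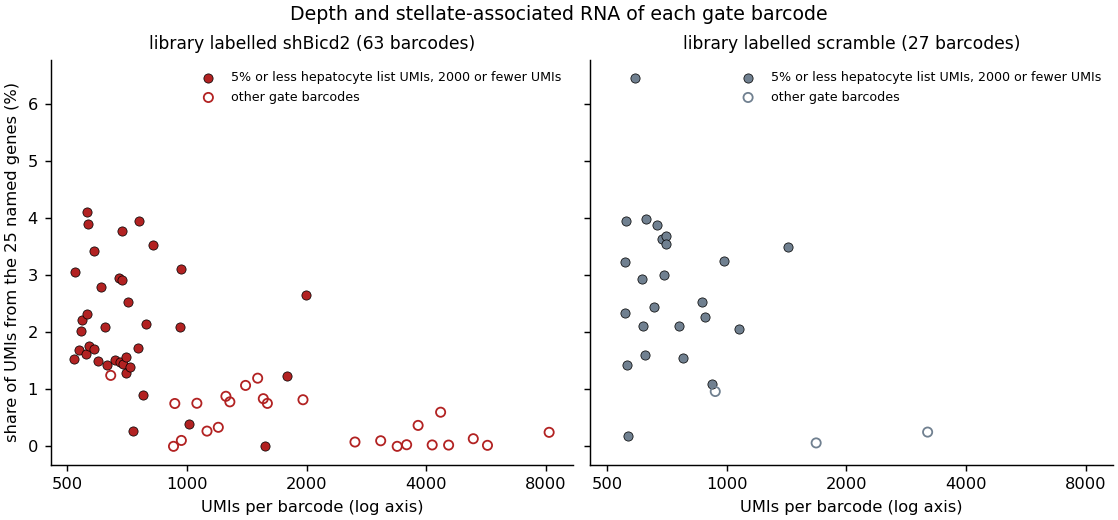
Each point is 1 gate barcode, with its UMIs on a log axis and the share of its UMIs that came from the 25 named genes; filled points are the low-hepatocyte set and open points the other members. The 11 members over 2000 UMIs in the library labelled shBicd2 sit between 0% and 0.598%, while members under 1000 UMIs reach 4.11% in shBicd2 and 6.45% in scramble.

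Genes outside the gate were set against all other barcodes of the same library. The gate was chosen from the same counts, so these folds are a description and not a test. Of 2421 genes with at least 10 UMIs in the gate, 219 were at least 2-fold higher in gate barcodes, with the lower bound above 1, in both libraries (9.05%), and these are the genes called below. Of 407 genes on 14 lists of stellate and mesenchymal functions, 125 reached 10 UMIs and 39 of them were called. The other listed genes were too sparse to place. The minimum of 10 UMIs was counted in the gate itself, so a rare gene could reach it only where it was high there. Shares of called genes are therefore a description.

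Among secreted signals, Hgf, hepatocyte growth factor, had 42 UMIs in 21 shBicd2 barcodes and 6 UMIs in 4 scramble barcodes. That was 122-fold (69.9 to 219) above other barcodes in shBicd2 and 129-fold (38.5 to 392) in scramble. Rspo3, the R-spondin of the liver's central vein zone, had 17 shBicd2 UMIs and 3 scramble UMIs, at 164-fold (61.8 to 509) in shBicd2 and 645-fold (51.8 to 33873) in scramble. So wide an interval comes from the 1 UMI that all other scramble barcodes held. Igfbp3, which binds insulin-like growth factors, was 38.7-fold higher in shBicd2 and 92.2-fold in scramble. Of 7 secreted growth factors with enough UMIs 4 were called, with these 3 among them. Vegfa, an endothelial growth factor, stood at 0.875-fold in shBicd2 and 0.393-fold in scramble, and Igf1, which hepatocytes release into blood, at 0.463-fold in shBicd2 and 0.190-fold in scramble. Inhba, an activin subunit outside the lists and singled out after its values were seen, had 7 shBicd2 UMIs and 9 scramble UMIs, at 50.8-fold in shBicd2 and 277-fold in scramble.

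The list of receptors summed to 1559 CPM in the shBicd2 gate and 3363 CPM in the scramble gate, against 324 CPM in the other shBicd2 barcodes and 286 CPM in the other scramble barcodes, and 4 of 7 genes were called. Barcodes that endothelial genes mark were nearer the gate, with 675 CPM of the list in shBicd2 and 1525 CPM in scramble. Ednra, a receptor for endothelin, a peptide that contracts stellate cells, had 14 shBicd2 UMIs and 4 scramble UMIs, at 135-fold (48.9 to 430) in shBicd2 and 287-fold (48.5 to 1958) in scramble. Its relative Ednrb was 67.7-fold higher in shBicd2 and 154-fold in scramble. Itga1, the collagen-binding integrin alpha 1 subunit, had 20 shBicd2 UMIs and 31 scramble UMIs, at 7.44-fold (4.42 to 11.9) in shBicd2 and 40.2-fold (26.4 to 59.2) in scramble. The fourth was Itgav, another integrin subunit. Itga9 had 10 UMIs in 10 shBicd2 barcodes and 0 in the scramble gate, where a count of 0 allows up to 128 CPM.

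All 3 guidance and neural adhesion genes with enough UMIs were called. Sema6d, a transmembrane semaphorin, was 42.9-fold higher in shBicd2 and 84.5-fold in scramble, Cdh2, N-cadherin, was 2.38-fold higher in shBicd2 and 5.81-fold in scramble, and Robo2, a receptor for Slit proteins, had 5 UMIs in each gate. Cacna2d1, a calcium channel subunit singled out after its values were seen, had 14 shBicd2 gate UMIs and 3 scramble gate UMIs, against 3 UMIs in all other shBicd2 barcodes and 0 in all other scramble barcodes.

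Matrix genes other than the gate's own were thin, with 2 of 5 called. Vcan, the proteoglycan versican, had 17 shBicd2 UMIs and 5 scramble UMIs, at 32.9-fold in shBicd2 and 76.8-fold in scramble. Thbs1, thrombospondin 1, had 13 shBicd2 UMIs and 5 scramble UMIs, at 12.8-fold in shBicd2 and 29.9-fold in scramble. Fn1, fibronectin, which hepatocytes secrete into plasma, was at 0.659-fold in shBicd2 and 0.459-fold in scramble. Among matrix-remodelling genes the metalloprotease genes Adamts9 (36.6-fold in shBicd2, 67.0-fold in scramble), Adamts4 (19.3-fold in shBicd2, 35.8-fold in scramble) and Adamts1 (3.71-fold in shBicd2, 10.6-fold in scramble) were called, with Plod2, a collagen lysyl hydroxylase, as the 4 calls among 8. Ccdc80, a secreted matrix protein singled out after its values were seen, had 21 shBicd2 UMIs and 6 scramble UMIs, at 152-fold in shBicd2 and 108-fold in scramble.

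The contractile list summed to 569 CPM in the shBicd2 gate and 809 CPM in the scramble gate, against 681 CPM in other shBicd2 barcodes and 305 CPM in other scramble barcodes. The portal fibroblast list summed to 232 CPM in the shBicd2 gate and 255 CPM in the scramble gate, against 157 CPM in other shBicd2 barcodes and 206 CPM in other scramble barcodes. Acta2, smooth muscle actin, had 0 UMIs in both gates. Des, desmin, had 1 shBicd2 UMI and 0 scramble UMIs, Col1a2 had 2 shBicd2 UMIs and 1 scramble UMI, and Timp1, a protease inhibitor, had 3 shBicd2 UMIs and 1 scramble UMI. Of 21 contractile genes 13 had 0 UMIs in the gate, and 0 of the 3 with enough UMIs were called. Of 24 portal fibroblast genes 15 had 0 UMIs, with Thy1, Gli1, Fbln2, Entpd2 and Dpt among them, and the other 9 stayed under 10 UMIs. Of 30 stellate identity genes 9 had enough UMIs, and 5 of the 9 were called. That list summed to 2612 CPM in the shBicd2 gate and 3406 CPM in the scramble gate. Other barcodes had 1249 CPM of it in shBicd2 and 2033 CPM in scramble. Some genes of stellate cells were thus called in the gate, while the portal fibroblast part of the name could not be checked at this depth. The retinoid list summed to 2307 CPM in the shBicd2 gate and 937 CPM in the scramble gate. Other barcodes had more of it, at 2525 CPM in shBicd2 and 1250.5 CPM in scramble. Of 9 retinoid genes with enough UMIs 2 were called. They were Rdh10, which makes retinaldehyde (7.73-fold in shBicd2, 19.3-fold in scramble), and Aldh1a3, which makes retinoic acid (5.66-fold in shBicd2, 22.6-fold in scramble).

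Among 13 transcription factor genes 6 were called. The list summed to 3255 CPM in the shBicd2 gate and 4129 CPM in the scramble gate. Barcodes that endothelial genes mark had 2042 CPM of it in shBicd2 and 3753 CPM in scramble. Tshz2, a zinc finger factor, had 48 shBicd2 UMIs and 11 scramble UMIs, at 8.34-fold in shBicd2 and 10.0-fold in scramble. Gata6, a GATA factor, had 22 shBicd2 UMIs and 10 scramble UMIs, at 7.42-fold in shBicd2 and 9.31-fold in scramble. Zeb2, a repressor known from epithelial to mesenchymal transition, was 7.30-fold higher in shBicd2 and 9.64-fold in scramble. It was not particular to the gate, at 211 CPM in the shBicd2 gate and 426 CPM in the scramble gate, with 565 CPM in the 34 shBicd2 barcodes and 622 CPM in the 57 scramble barcodes that Ptprc marks. The others were Hand2, Nr2f2 and Tcf4.

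Inflammatory genes made 9 calls among 16 chemokine, cytokine and adhesion genes with enough UMIs. Cxcl12, the chemokine that retains CXCR4-bearing cells, had 39 shBicd2 UMIs and 18 scramble UMIs, at 27.9-fold (18.6 to 41.4) in shBicd2 and 25.3-fold (14.6 to 41.4) in scramble. It had 0 UMIs in the 26 shBicd2 barcodes and 1 UMI in the 16 scramble barcodes that endothelial genes mark, and 0 in the Ptprc barcodes of both libraries. The eosinophil chemokine Ccl11 had 7 shBicd2 UMIs and 11 scramble UMIs, at 50.8-fold in shBicd2 and 473-fold in scramble. The monocyte chemokine Ccl7 was 10.8-fold higher in shBicd2 and 30.7-fold in scramble. The growth factor and cytokine genes Csf1 and Lif, Vcam1, and the receptor genes Il6st, Osmr and Ifnar2 were also called.

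The neutrophil chemokine Cxcl1 was not called, at 0.945-fold in shBicd2 and 0.588-fold in scramble, and Il6 had 0 UMIs in both gates. Vcam1 had 45 shBicd2 UMIs and 16 scramble UMIs, but 19 of the 45 came from 1 barcode. Its level was 474 CPM in the shBicd2 gate and 681 CPM in the scramble gate, with 557 CPM in the shBicd2 endothelial barcodes and 2580 CPM in the scramble endothelial barcodes. Ptgs2, the inducible cyclooxygenase, had 12 UMIs in each gate, at 38.7-fold in shBicd2 and 89.0-fold in scramble. Of 28 interferon and NF-kB response genes with enough UMIs 3 were called, Gbp5, Nfkb1 and Birc3. That is close to the 9.05% called among all 2421 genes tested.

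**Figure D2:**
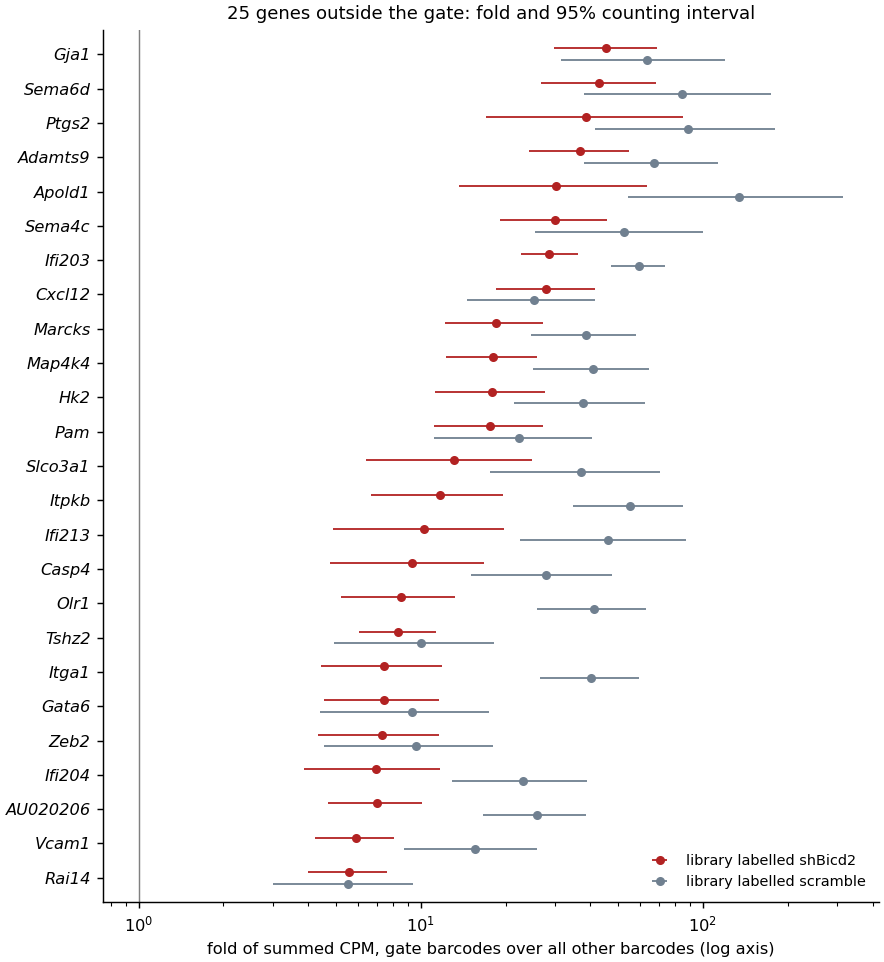
The 25 genes outside the gate with the highest fold over all other barcodes in the library where the fold was lower, with the library labelled shBicd2 above that labelled scramble in each pair; the axis is logarithmic and bars are exact 95% counting intervals. All 25 lie right of 1 in both libraries, from Gja1 at 45.3-fold in shBicd2 and 63.5-fold in scramble to Rai14 at 5.57-fold in shBicd2 and 5.54-fold in scramble.

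The remaining named genes were mostly of the cell surface, signalling and metabolism. Gja1, the gap junction protein connexin 43, led them with 43 shBicd2 UMIs and 13 scramble UMIs. Marcks, an actin-binding substrate of protein kinase C, was 18.5-fold higher in shBicd2 and 38.5-fold in scramble. Map4k4, a kinase, was 18.0-fold higher in shBicd2 and 40.9-fold in scramble. Hk2, a hexokinase, was 17.8-fold higher in shBicd2 and 37.6-fold in scramble. Pam, the enzyme that amidates peptide hormones, was 17.7-fold higher in shBicd2 and 22.2-fold in scramble. Sema4c, Apold1, Slco3a1, Itpkb, Casp4, Olr1, AU020206 and Rai14 were also among the 25. Olr1, a receptor for oxidised lipoprotein, stood at 242 CPM in the shBicd2 gate and 1107 CPM in the scramble gate, with 658 CPM in the shBicd2 endothelial barcodes and 997 CPM in the scramble endothelial barcodes.

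Gm12840 (chr4:117700188-117700923, GRCm38, annotated as a lincRNA) was singled out after its values were seen. It had 320 UMIs in 37 shBicd2 barcodes and 153 UMIs in 23 scramble barcodes, at 37.7-fold (32.7 to 43.5) in shBicd2 and 97.1-fold (79.7 to 118) in scramble. A UMI of it was present in 58.7% of shBicd2 gate barcodes and 85.2% of scramble gate barcodes, against 7.05% of other shBicd2 barcodes and 5.35% of other scramble barcodes of greater median depth (1520 UMIs in shBicd2 and 1522.5 UMIs in scramble). One shBicd2 barcode held 71 of the 320 UMIs. Endothelial barcodes had 1114 CPM of it in shBicd2 and 2873 CPM in scramble, and Ptprc barcodes 0 CPM in shBicd2 and 88.8 CPM in scramble.

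**Figure D3:**
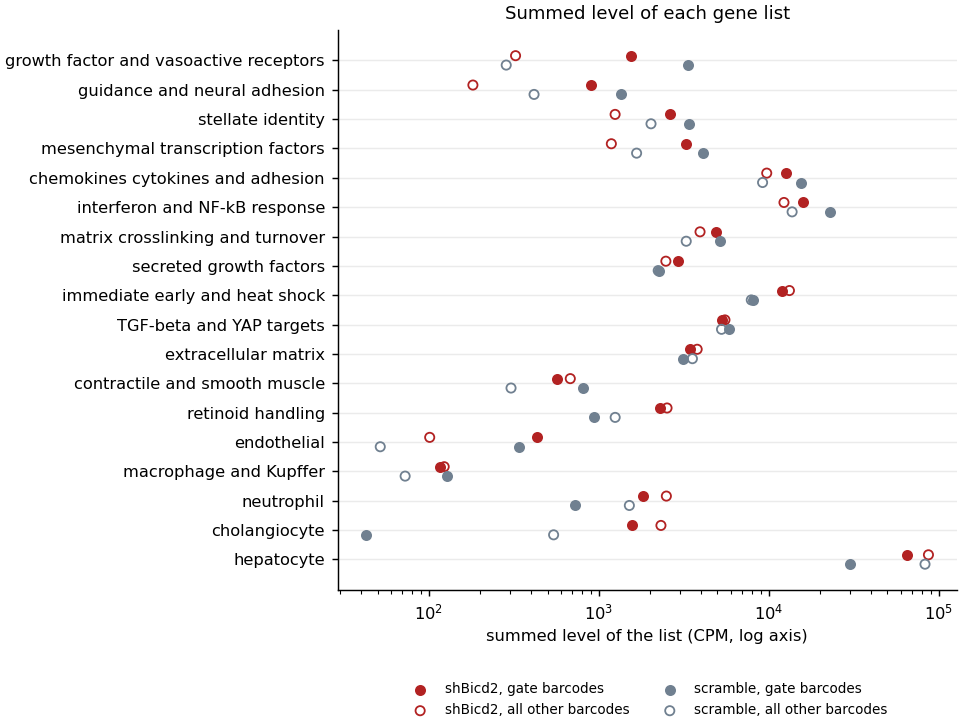
Summed level of 18 gene lists in CPM on a log axis, in gate barcodes (filled) and all other barcodes (open), with the library labelled shBicd2 above that labelled scramble in each row. Receptors, guidance genes and transcription factors are higher in gate barcodes of both libraries and the hepatocyte list is lower in them, while the cholangiocyte list stands at 1580 CPM in the shBicd2 gate and 42.6 CPM in the scramble gate. Krt8 alone gave 77 of the 150 shBicd2 gate UMIs of the cholangiocyte list.

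The PYHIN genes on chromosome 1, a family of interferon-inducible proteins of which some sense DNA, were singled out after their values were seen. Of 13 in the files, 6 reached 10 UMIs in the gate and all 6 were called, beside 9.05% of all genes tested. The other 7 held 8 shBicd2 UMIs and 5 scramble UMIs in the gate. That minimum was counted in the gate, so the share called is a description. Ifi203 had 114 UMIs in 30 shBicd2 barcodes and 106 UMIs in 22 scramble barcodes, at 28.6-fold (22.7 to 36.0) in shBicd2 and 59.2-fold (47.3 to 73.6) in scramble. A UMI of it was present in 47.6% of shBicd2 gate barcodes and 81.5% of scramble gate barcodes, against 4.81% of other shBicd2 barcodes and 5.86% of other scramble barcodes, with the same medians of depth. Ptprc barcodes held it too, at 659 CPM in shBicd2 and 901 CPM in scramble. Ifi204 had 16 UMIs in each gate and Ifi205 had 8 in each. Ifi213 had 11 shBicd2 UMIs and 12 scramble UMIs, Mndal 15 shBicd2 UMIs and 12 scramble UMIs, and Ifi211 5 shBicd2 UMIs and 12 scramble UMIs.

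Of these 6 genes 5 have an entry in the RefSeq promoter table, and all 5 hold GAAA, any 2 bases and GAAA again, the repeat of interferon-stimulated response elements, in a 300-base window searched on both strands. These letters are in a window of 3.99% of 27025 genes, and of 12 of the 170 called genes that have one (7.06%), with these 5 genes among the 12. For each of the 5, 60 bases around the first match are printed to show how alike the copies are, with the match in capitals, all on the minus strand of chromosome 1 of GRCm38.p6. They lie at chr1:173942493-173942552, chr1:173880189-173880248, chr1:173599311-173599370, chr1:174031855-174031914 and chr1:173913049-173913108, in the order printed.
Ifi203: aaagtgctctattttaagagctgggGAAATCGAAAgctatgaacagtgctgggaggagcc
Mndal: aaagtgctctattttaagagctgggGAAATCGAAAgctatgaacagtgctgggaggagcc
Ifi213: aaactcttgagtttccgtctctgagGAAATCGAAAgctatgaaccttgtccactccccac
Ifi205: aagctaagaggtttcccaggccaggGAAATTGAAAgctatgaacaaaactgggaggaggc
Ifi211: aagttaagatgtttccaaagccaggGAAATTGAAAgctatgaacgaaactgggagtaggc
The Ifi203 and Mndal stretches are identical over all 60 bases, those of Ifi205 and Ifi211 match at 54, and that of Ifi213 matches Ifi203 at 34. The genes are close relatives, and the annotated span of Mndal (chr1:173849126-173942491, GRCm38) overlaps that of Ifi203 (chr1:173920407-173942672) on the same strand, so the counting may have divided or lost reads between them and their counts are uncertain.

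Which genes differed between the libraries depended on the members taken. Over all gate barcodes, 168 of 1065 genes with at least 20 UMIs were at least 2-fold higher in shBicd2 with the interval above 1 (15.8%), and 125 were at least 2-fold lower with the interval below 1 (11.7%). Of the 168, 24 were on the hepatocyte list, 97 lay below the level of other barcodes in both libraries and 0 were among the 219 called genes. Of the 125, 46 were among the 219 and 0 were on the hepatocyte list. Only 108 of the 219 had the 20 UMIs needed here. Of these 108, 46 were lower in shBicd2 and 0 higher, beside 11.7% lower and 15.8% higher among all 1065. In the low-hepatocyte set 46 of 344 genes were higher in shBicd2 (13.4%) and 39 were lower (11.3%). Of these, 3 of the 46 and 18 of the 39 were among the 219, of which at most 108 could have 20 UMIs there. Among genes at least 2-fold above other barcodes in scramble, a rule named the 10 lowest in shBicd2. They were Spred1, Dgkh, Lpp, Itga1, Itpkb, Ktn1, Sept11, Arid1a, Ube2d2a and Socs2. In the low-hepatocyte set 8 of the 10 kept that call, and Arid1a and Sept11 had under 20 UMIs there. That set reuses 24 of the 27 scramble gate barcodes from which the 10 were named. A kept call is thus a description and not a separate check.

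Spred1, a brake on Ras signalling, was the lowest of them. It had 9 UMIs in 6 shBicd2 barcodes and 24 UMIs in 11 scramble barcodes, a fold of 0.0928 (0.0380 to 0.207). In the low-hepatocyte set it had 4 shBicd2 UMIs and 24 scramble UMIs, a fold of 0.102 (0.0257 to 0.296), and in all other barcodes its fold was 0.523. Ktn1, which binds kinesin at membranes, had 51 shBicd2 UMIs and 75 scramble UMIs, a fold of 0.168 (0.116 to 0.243). Its fold was 0.255 (0.158 to 0.402) in the low-hepatocyte set and 0.974 in all other barcodes. Itga1 was seen in 9 of 38 shBicd2 barcodes and 14 of 24 scramble barcodes of the low-hepatocyte set, with folds of 0.160 (0.0862 to 0.289) in the gate, 0.315 (0.161 to 0.594) in that set and 0.862 in all other barcodes. Lpp, a focal adhesion protein, was at 0.195 (0.101 to 0.355) in the set and 0.591 in other barcodes. Dgkh, a diacylglycerol kinase, was at 0.248 (0.120 to 0.486) in the set and 0.622 in other barcodes. Socs2, a target of growth hormone signalling, was at 0.286 (0.144 to 0.544) in the set and 0.235 in other barcodes, so it was low in shBicd2 in both.

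The 34 chemokine, cytokine and adhesion genes summed to 312 shBicd2 UMIs and 324 scramble UMIs in the low-hepatocyte set, a fold of 0.588 (0.502 to 0.689), or 0.730 (0.613 to 0.871) without Cxcl10. Of 11 genes with enough UMIs 3 were at least 2-fold lower and 0 higher, beside 11.3% lower and 13.4% higher among all 344 genes. Over all other barcodes the same list was at 9748 CPM in shBicd2 and 9215 CPM in scramble. The 31 interferon and NF-kB response genes summed to 557 shBicd2 UMIs and 482 scramble UMIs, a fold of 0.706 (0.624 to 0.799), with 3 of 13 lower and 1 higher. The median log2 fold was -0.42 for the chemokine list and -0.40 for the interferon list, beside -0.19 over all 344 genes.

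Cxcl10, a chemokine for activated T cells, had 25 shBicd2 UMIs and 84 scramble UMIs in the low-hepatocyte set, a fold of 0.182 (0.111 to 0.287), against 0.806 in other barcodes. Nfkb1 had 19 shBicd2 UMIs and 43 scramble UMIs, a fold of 0.270 (0.149 to 0.473), against 1.48 in other barcodes. Ccl2, a monocyte chemokine, had 21 shBicd2 UMIs and 33 scramble UMIs, a fold of 0.389 (0.214 to 0.692), against 3.63 in other barcodes, so its fold lay on opposite sides of 1. Gbp5, an interferon-inducible GTPase, was at 0.429 (0.287 to 0.639) in the set and 0.639 in other barcodes. Ifi203 was at 0.575 (0.430 to 0.767) in the set and 0.550 in other barcodes. Over the whole gate the fold of Cxcl10 was 0.630 and that of Cxcl9, another T cell chemokine, was 2.01, against 0.382 (0.186 to 0.758) for Cxcl9 in the low-hepatocyte set.

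Among stellate genes, Hgf had 27 UMIs in 15 shBicd2 barcodes and 6 UMIs in 4 scramble barcodes of the low-hepatocyte set, a fold of 2.75 (1.11 to 8.14), and Tshz2 had 36 shBicd2 UMIs and 10 scramble UMIs, a fold of 2.20 (1.07 to 4.97). Over the whole gate the fold was 1.73 (0.733 to 4.99) for Hgf and 1.08 (0.553 to 2.31) for Tshz2. In all other barcodes it was 1.83 for Hgf and 1.30 for Tshz2. Dcn had 1.54 UMIs per shBicd2 gate barcode and 1.59 per scramble gate barcode. In the low-hepatocyte set the intervals of Gja1 (1.43, 0.702 to 3.08), Sema6d (1.40, 0.643 to 3.31), Cxcl12 (0.848, 0.445 to 1.65), Adamts9 (0.882, 0.466 to 1.71) and Gm12840 (0.953, 0.773 to 1.18) all include 1. Ifit2, an interferon-induced gene, alone was named by rule as higher over the whole gate. That rule also asked for a level at least 2-fold above other shBicd2 barcodes. Ifit2 had 26 shBicd2 UMIs and 0 scramble UMIs, a fold whose interval starts at 1.62. But 19 of the 26 came from 1 barcode, and the low-hepatocyte set held 0. Cemip, which takes part in hyaluronan breakdown and was singled out after its values were seen, had 20 shBicd2 UMIs and 0 scramble UMIs, with 18 of the 20 in 1 barcode.

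**Figure D4:**
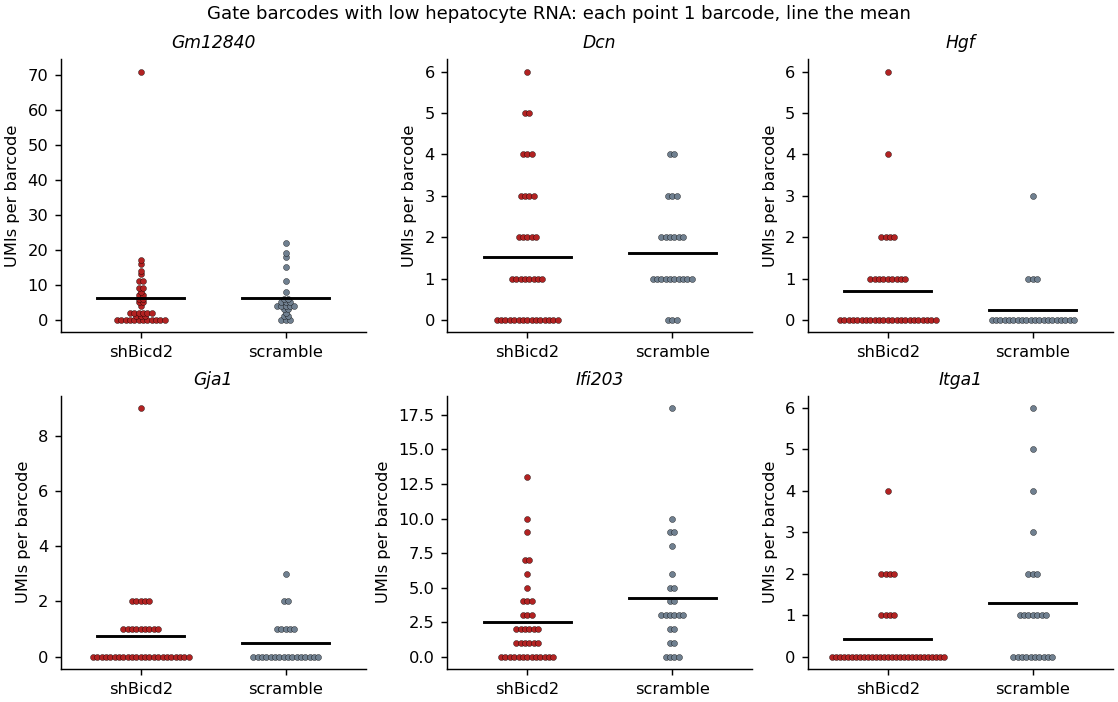
UMIs of 6 genes in each barcode of the low-hepatocyte set (38 barcodes labelled shBicd2 on the left of each panel, 24 labelled scramble on the right), with the mean as a line. Single shBicd2 barcodes reach 71 UMIs of Gm12840 and 9 of Gja1; the means of Ifi203 and Itga1 are lower and that of Hgf is higher in shBicd2, and the libraries overlap in every panel.

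**Figure D5:**
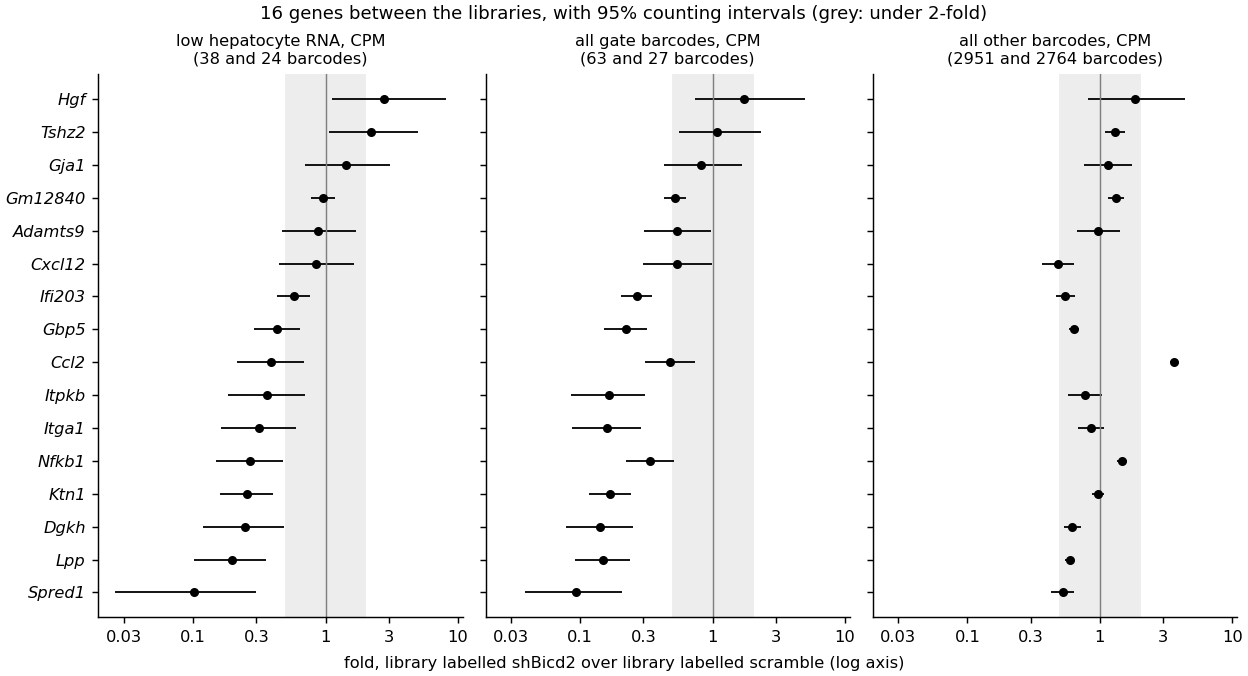
Fold of the library labelled shBicd2 over that labelled scramble for 16 genes chosen for display after their values were seen, on log axes with 95% counting intervals, in the low-hepatocyte set (left), all gate barcodes (middle) and all other barcodes (right). Ccl2 lies at 0.389 on the left and 3.63 on the right, and Ktn1 at 0.255 on the left and 0.974 on the right.

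Bicd2 had 1 shBicd2 UMI and 2 scramble UMIs in the gate, too few for the targeted gene to check the labels in these cells. Its paralog Bicd1 had 24 UMIs in 12 shBicd2 gate barcodes and 1 UMI in 1 scramble gate barcode. Over the whole gate Bicd1 stood at 253 CPM (162 to 376) in shBicd2 and 42.6 CPM (1.08 to 237) in scramble. It was not called between the libraries there, where 0 of 6 dynein and cargo adaptor genes tested were higher in shBicd2. In the low-hepatocyte set Bicd1 had 22 shBicd2 UMIs and 1 scramble UMI, a ratio of 13.4 (2.17 to 555), while all other barcodes held 54 shBicd2 UMIs and 60 scramble UMIs. Against other barcodes Bicd1 was 25.8-fold (15.2 to 42.4) higher in the shBicd2 gate and 3.58-fold (0.0893 to 20.8) in the scramble gate. Of 9 dynein and cargo adaptor genes with enough UMIs, 0 were called against other barcodes in both libraries. EGFP, a fluorescent protein listed among the deposited features, had 74 UMIs in 12 shBicd2 gate barcodes and 0 in the scramble gate, which allows up to 128 CPM. In the other barcodes it stood at 887 CPM in shBicd2 and 67.5 CPM in scramble, and 12 of the 74 UMIs lay in the low-hepatocyte set.

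The macrophage list had 116 CPM in the shBicd2 gate and 128 CPM in the scramble gate, and the T and NK list 42.1 CPM in shBicd2 and 0 CPM in scramble, with 13 of its 15 genes at 0 UMIs. The endothelial list was above other barcodes, at 432 CPM in the shBicd2 gate and 341 CPM in the scramble gate, against 101 CPM in other shBicd2 barcodes and 51.9 CPM in other scramble barcodes, with 16 of 24 genes at 0 UMIs, and Rspo3 and the co-receptor gene Eng were its called members. The neutrophil list stood at 1833 CPM in the shBicd2 gate and 724 CPM in the scramble gate, against 2502 CPM in other shBicd2 barcodes and 1516 CPM in other scramble barcodes. The cholangiocyte list, at 1580 CPM in the shBicd2 gate and 42.6 CPM in the scramble gate, had 2325 CPM in other shBicd2 barcodes and 543 CPM in other scramble barcodes. The keratin gene Krt8 alone gave 77 of the 150 shBicd2 gate UMIs of that list. Of its 11 genes 6 had 0 UMIs in the gate. Malat1, a nuclear RNA, was at 42246 CPM in the shBicd2 gate and 68877 CPM in the scramble gate, against 26488 CPM in other shBicd2 barcodes and 36523 CPM in other scramble barcodes. Mitochondrial RNA was a median of 0.629% of UMIs in shBicd2 gate barcodes and 0.203% in scramble gate barcodes. The part of these differences in the results above was not tested.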

How the data were processed

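The authors deposited raw UMI counts per gene and barcode, 1 matrix for each library of 10x 3' RNA (kit 3.1, per the labels). The matrices carry Cell Ranger 6.1.2 per the file headers. The submitters' processing notes list Cell Ranger 6.0.1, Seurat 4.0.3 and mm10. Doublet removal and the counting of introns are not stated there.

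Kept barcodes had 200 genes or more and no more than 25% of their UMIs from mitochondrial genes, and the gate was applied to raw counts. UMIs were summed per library and set of barcodes and divided by the set total to give CPM. Folds have exact conditional binomial intervals and shares have Clopper-Pearson intervals. A set with 0 UMIs is given the limit of 3 counts. Log2 medians between libraries were taken after adding 0.5 UMI. No p-value was computed, because barcodes are not replicates. The fold intervals were tested on simulated counts, drawn independently for each gene. Such counts leave out the gathering of UMIs in single barcodes, so the simulation covers counting error only. Python 3.11.15, numpy 2.4.6, scipy 1.17.1 and pandas 2.3.3 were used, with Scrublet in scanpy 1.11.5 for an alternative without likely doublets; the main values keep them.

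Named genes were the 25 with the highest fold over other barcodes in the library where it was lower (10 UMIs or more in each gate, leaving out hepatocyte, mitochondrial, ribosomal, hemoglobin and clone-named genes), stellate list members with 10 UMIs or more, up to 10 genes in each direction between libraries with an interval beyond 1.5-fold, and Bicd2, EGFP and markers of other cells. The genes named between libraries also lay at least 2-fold above other barcodes in the library where they were higher. The same families were left out of them. Endothelial barcodes had 3 UMIs or more over endothelial genes and 0 of Ptprc, and Ptprc barcodes 2 or more of Ptprc and 0 of Ptprb and Stab2, both with 0 of the gate genes. Coordinates of genes are GRCm38 from GENCODE M21, and sequences are from RefSeq, GRCm38.p6. The members and lists were chosen with earlier results of these data known. Some listed genes are not reported here.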

Additional observations from a re-analysis of the deposited data

How the results depend on the processing

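No paired analysis was possible because each group has 1 library. The ratio of gate shares, 2.16, ranged from 1.47 to 3.38 over 9 settings, with an interval that includes 1 at a minimum of 4 gate UMIs (0.715 to 3.25) and in the low-hepatocyte set (0.857 to 2.56), and was 4.72 (1.34 to 25.4) with barcodes thinned to 1000 UMIs, where 15 shBicd2 members and 3 scramble members remained and 861 shBicd2 and 758 scramble barcodes were too shallow to thin. The 219 genes higher in the gate and the 39 listed genes among them became 115 and 21 at 4 gate UMIs, 97 and 23 with at least 500 genes per barcode, and 34 and 11 with a count minimum of 50 UMIs. The 168 genes higher and 125 lower in the library labelled shBicd2 became 102 and 79 at 3 gate UMIs, 50 and 35 at 4 gate UMIs, 104 and 78 with at least 500 genes, 94 and 44 with the count minimum of 50, 55 and 42 with free RNA subtracted, 46 and 39 in the low-hepatocyte set, and 348 and 29 as UMIs per barcode, a scale that carries the greater depth of the shBicd2 members. Fewer genes could be placed under the stricter gates. Against other barcodes 2421 genes were tested in the main setting, 761 at 4 gate UMIs and 1908 with at least 500 genes. Between the libraries 1065 were tested in the main setting, 559 at 3 gate UMIs and 277 at 4 gate UMIs. With at least 500 genes 817 were tested, and in the low-hepatocyte set 344. The falling counts are thus not falling shares by themselves, and their cause was not tested otherwise. Removing the 73 shBicd2 and 62 scramble barcodes with the highest doublet scores took 0 from the gates. Of 142 values of the 11 genes named between libraries, 122 kept the call and 20 lost it; of the 10 named as lower, 5 kept it with the count minimum of 50 and 6 at 4 gate UMIs. Of the 25 genes named against other barcodes, 280 of 300 values kept the call, 19 lost it, and Apold1 was at 0 in 1 library at 4 gate UMIs. These settings reuse the counts that chose the named genes, so a kept call is not a separate check. The low-hepatocyte set, a gate of at least 2 different genes, a gate without Reln, the scale per barcode and the chemokine list without Cxcl10 were added after seeing the data. At this depth, 26 shBicd2 members and 9 scramble members rest on 2 gate UMIs.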
